A study of Mus musculus with 24 samples.

Results

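The GC-1 line was compared with whole mouse testis on 6 of the 24 arrays of a survey of long noncoding RNAs (lncRNAs) and mRNAs. The arrays were taken by their labels, 3 for GC-1 and 3 for testis, and all 60804 transcript probes entered the comparison, whether or not the transcript was specific to testis. The survey covered 5 tissues (brain, heart, kidney, liver and testis) and 3 lines (GC-1, GC-2 and F9), with 3 arrays each. All tissue samples came from male ICR mice 8 weeks old. For testis the whole organ was used, so that its germ cells of all stages were measured together with Sertoli, Leydig, vessel and other somatic cells. GC-1 is 1 immortalized line from mouse type B spermatogonia, bought from a cell repository and grown in DMEM with fetal bovine serum with no other treatment. F9 is an embryonal carcinoma line and GC-2 is an immortalized line from spermatocytes; both were grown in the same medium, F9 on gelatin. The study's methods state biological replicates for the tissues; whether the 3 GC-1 samples were separate cultures is not given in the sources used here, so that p-values for this line measure only the spread between these samples, which may be technical. Only 2317 probes (3.81% of all) could be given a gene name here, 2057 for lncRNAs and 260 for mRNAs, and every named result below rests on these. A named mRNA is one that the study had selected on these same arrays as specific to testis and present in F9, GC-1 or GC-2, and most named lncRNAs are those abundant in brain or in F9.

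In the testis, spermatogonia divide by mitosis, enter meiosis as spermatocytes, and become haploid spermatids that build an acrosome and a flagellum. Leydig cells between the tubules make testosterone. Germ cells also use a pathway of small RNAs bound to PIWI proteins (piRNAs) that silences transposons, and lncRNAs are abundant in the testis.

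Levels are log2 of the scanner's processed signal over the 75th percentile of its array, and a difference is the mean GC-1 level minus the mean testis level. A probe was called when it differed at least 5-fold at an adjusted p of at most 0.05 (limma across all probes, Benjamini-Hochberg). Of all probes, 33639 were well above background, by the scanner's own flag, on all 3 testis arrays and 24895 on all 3 GC-1 arrays; 22783 probes were in both sets, 67.7% of the testis set and 91.5% of the GC-1 set. GC-1 was called higher at 10570 probes (17.4% of those tested) and lower at 7202 (11.8%), and these shares are the background for each list below. With the further demand that a probe well above background on no array of a group differ by a bound of at least 5-fold, 8134 higher and 5387 lower calls were left. The 75th percentile itself was 305.1 to 384 intensity units on the testis arrays and 98.2 to 131.2 on the GC-1 arrays, and the median difference over all probes was 1.43. When the percentile was taken only over probes above background on all 6 arrays, every difference fell by 1.10, to a median of 0.33, and GC-1 was higher at 4180 probes (6.87%) and lower at 10163 (16.7%); the split was 7880 (13.0%) and 7981 (13.1%) under quantile normalization and 4042 (6.65%) and 3689 (6.07%) after normexp background correction. These are the other scalings referred to below, and every scaling means these 3 and the main one. All 7202 lower probes were also called with the common-probe percentile and 7182 under quantile normalization as well, against 4180 and 4106 of the 10570 higher probes. Arrays correlated at 0.979 to 0.991 within a group and at 0.702 to 0.716 between the groups. Replicate 1 of both groups shared a slide, whereas the other testis and GC-1 arrays lay on different slides.

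The labels were checked against 36 marker genes in 7 lists of testis cell types, of which 3 could be identified on the array. No Sertoli cell, spermatocyte, fibroblast or blood and vessel marker was among them. The 3 were Star, Stra8 and Acr, a spermatid marker that is described with its list below. Star carries cholesterol into mitochondria for steroid synthesis and marks Leydig cells. Its levels were 2.19, 2.83 and 2.71 in testis and -1.99, -2.15 and -2.54 in GC-1. The groups did not overlap, and Star was 27.9-fold lower in GC-1 (difference -4.80, SE 0.24, adjusted p = 4.5e-06) while it remained well above background on all 3 GC-1 arrays. On the shared slide alone the difference was -4.18. In bulk RNA of a whole organ, fewer cells of a type and less RNA per cell cannot be told apart. Stra8, the retinoic acid target needed for meiotic entry, was the only spermatogonial marker of 7 that was identified. Its levels were 0.04, 0.00 and 0.26 in testis, and on no GC-1 array was it well above background. The spermatogonial label of GC-1 could therefore not be checked beyond 1 gene, which was not detected in it. The study had chosen Star and Stra8 as testis-specific on these same arrays and present in a line. Neither the lower reading of both nor the lack of Stra8 in GC-1 is thus independent evidence.

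Transcripts of spermatids and sperm were far lower in GC-1. Of the 14 probes for this group, 13 were called lower and none higher, against 11.8% of all probes called lower, with a median difference of -7.15 against 1.43 over all probes. The study had chosen these mRNAs as testis-specific on the same arrays, so that their direction is no independent evidence. All 13 were called lower under every scaling. Oxct2b, a ketone body enzyme of spermatids, had levels of 8.91, 9.19 and 9.24 in testis and -2.50, -3.99 and -2.94 in GC-1, where it was well above background on 1 array. Its difference was -12.26 (SE 0.38, adjusted p = 5.1e-07). Qrich2, a protein of the sperm flagellum, had 8.57, 8.45 and 8.31 in testis and -2.63, -2.75 and -2.53 in GC-1. This gave a difference of -11.08 (SE 0.16, adjusted p = 5.2e-08), and GC-1 was again above background on 1 array. Actl7a, an actin-like protein of the spermatid head, remained detected on all GC-1 arrays.
Its levels were 8.33, 8.28 and 8.36 in testis and 0.20, -1.14 and -0.77 in GC-1, a 476-fold difference. Acr, the acrosomal protease acrosin, had 2.64, 2.81 and 2.83 in testis against -1.58, -1.33 and -1.55 in GC-1, and was 18.9-fold lower (difference -4.24, SE 0.16, adjusted p = 1.2e-06). Dnah8 (-8.22), Sept12 (-7.01), Spag4 (-6.14) and Rsph6a (-3.62), which belong to the flagellum or to its attachment and annulus, were lower as well, as was Nup210l (-5.62), a nuclear pore protein of spermatids. Spata6, needed for the sperm neck, was the exception, with a difference of -1.14 (SE 0.20) that did not reach 5-fold. GC-1 was well above background on all 3 arrays for 9 of the 14 probes and on 1 or 2 arrays for the other 5. Only mRNAs already selected as present in a line could be named, so that this detection is no independent evidence either. Spermatid transcripts absent from every line could not enter the list.

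Meiosis and piRNA transcripts were mostly not measurable in GC-1. Of 17 probes for 15 genes, 13 (76.5%) were called lower and none higher, against 11.8% of all probes and 44.6% of named mRNA probes called lower. Their median was -5.01, or -2.96 with probes below background in GC-1 at the bound explained below. All 17 were well above background on every testis array. The study had chosen these mRNAs as testis-specific on the same arrays, so that neither their direction nor their detection in testis is independent evidence. On no GC-1 array were 12 of the 17 well above background. For such probes only a bound can be given: the mean testis level against, on each GC-1 array, the higher of the probe's own level and the lowest level of any probe well above background there. Gtsf1, a zinc finger partner of PIWI proteins, had levels of 7.01, 6.48 and 6.75 in testis and was at least 785-fold lower in GC-1 (adjusted p = 5.8e-08). Rnf17, a Tudor domain protein of germ cells, was at least 102-fold lower. Piwil2, itself a PIWI protein, had 2.37, 1.69 and 1.61 in testis and was at least 27.0-fold lower. Ddx43, a germ cell helicase, was at least 48.2-fold lower. The bounds were 7.80-fold for Stra8, 6.84-fold for Tex15, 6.50-fold for Hormad2 of the meiotic chromosome axis and 6.14-fold for Tex19.1, and all of these lost the call after normexp correction, under which 6 of the 17 probes were lower. Atf7ip2 and Tex14, a component of intercellular bridges, each had 1 probe called lower (-5.77 and -5.22) and a second that was not (-1.09 and -1.13), so that the probes of these genes disagreed. Trip13, an ATPase used both in meiosis and at the mitotic checkpoint, had levels of -2.34, -1.78 and -1.83 in testis and 0.34, 0.22 and -0.05 in GC-1. It was the only one of the 17 whose GC-1 arrays all lay above testis, as did 63.7% of all probes, and its difference of 2.15 (SE 0.22) was short of 5-fold.

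**Figure D1:**
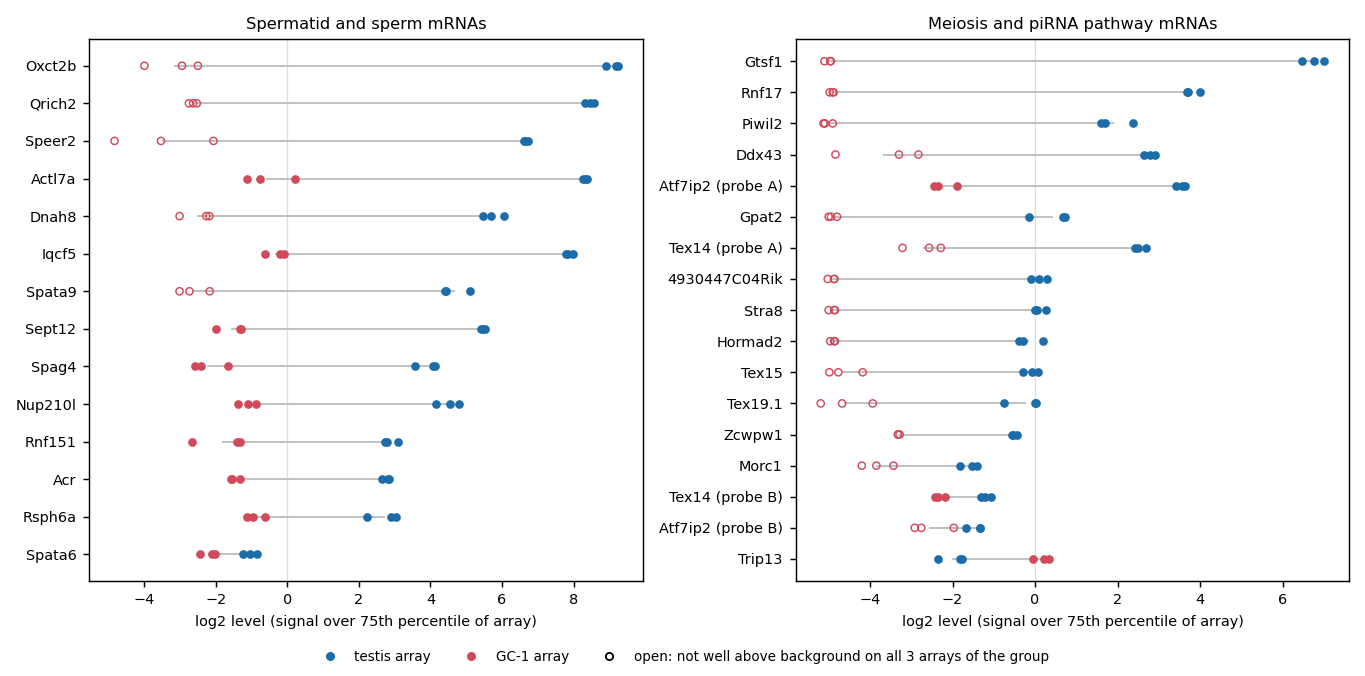
Levels of the 14 spermatid and sperm probes (left) and the 17 meiosis and piRNA probes (right) on each array, as log2 of signal over the array's 75th percentile; blue points are the 3 testis arrays, red points the 3 GC-1 arrays, lines join the group means, and open points mark a group in which fewer than 3 arrays were well above background. GC-1 lies below testis for every probe but Trip13, and for 12 probes on the right it was well above background on no array.

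Transcripts of cell division showed no common direction. Of 32 mitosis mRNAs, each well above background on all 6 arrays, 10 were called higher in GC-1, 1 was lower and 21 were not called. The share called higher was 31.3% against 17.4% of all probes, and their median of 1.39 was close to the 1.43 of all probes. With the common-probe percentile the same list had 3 higher and 4 lower, with quantile normalization 8 and 1, and after normexp correction 4 and 1. These genes too had been picked as testis-specific against tissues with little cell division. The 3 that were higher under every scaling were Ccna2, Sgol1 and Melk. Ccna2 encodes cyclin A2, which drives S phase and mitotic entry. It had levels of -1.74, -1.55 and -1.16 in testis and 3.27, 3.10 and 3.18 in GC-1, with no overlap, and was 25.4-fold higher (difference 4.67, SE 0.20, adjusted p = 2e-06). Sgol1 (shugoshin), which protects cohesion at centromeres, had -1.49, -1.77 and -1.47 against 3.69, 3.05 and 2.47 (difference 4.65, SE 0.32, adjusted p = 1.9e-05). Melk, a kinase of dividing cells, had -1.03, -1.64 and -1.25 against 3.56, 2.94 and 2.67 (difference 4.36, SE 0.29, adjusted p = 1.5e-05). The spindle and cytokinesis genes Racgap1 (2.85), Kif11 (2.70), Dlgap5 (2.58) and Kif20b (2.44), and Top2a (3.06), the topoisomerase of mitotic chromosomes, were called higher but not with the common-probe percentile; Top2a kept the call after normexp correction, and Dlgap5 lost it under quantile normalization too. Skp2, the F-box protein that marks the cell cycle inhibitor p27 for degradation, went the other way. It had 3.26, 3.33 and 3.47 in testis and -1.69, -1.05 and -1.18 in GC-1 and was 25.3-fold lower (difference -4.66, SE 0.21, adjusted p = 2.7e-06) under every scaling. Bora, which activates the kinase Plk1 (-2.08), and the centromere genes Cenpn (-1.71) and Cenpk (-1.54) were called lower only with the common-probe percentile.

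Among 15 probes for DNA replication and repair, 2 (13.3%) were called higher and 1 (6.67%) lower, both below the 17.4% and 11.8% of all probes. Their median of 0.80 was below the 1.43 of all probes. Eme1, a subunit of a DNA junction nuclease, had levels of -1.65, -1.31 and -1.24 in testis and 2.08, 2.28 and 1.77 in GC-1 and was higher under every scaling (3.45, SE 0.21, adjusted p = 1e-05). Chtf18, of a sliding clamp loader, was higher by 2.58 (SE 0.23), a call that was lost with the common-probe percentile and after normexp correction. Atr, a checkpoint kinase of stalled replication forks, had 2.20, 1.33 and 1.32 in testis and -0.22, -1.53 and -0.82 in GC-1, and its call (-2.47, SE 0.40, adjusted p = 0.00099) was lost after normexp correction and without testis replicate 1 or GC-1 replicate 2. The replication genes Gins2 (2.05) and Cdc45 (1.95) were not called. The second set was 26 lncRNA probes that carry the names of cell cycle and repair genes. Of these, 8 (30.8%) were called higher and none lower, against 17.4% of all probes and 41.0% of named lncRNA probes called higher. Their median of 1.04 was below the 1.43 of all probes. With the common-probe percentile 2 were higher and 3 lower. Those 2 were a Smc1a lncRNA, with -0.57, -0.85 and -0.84 in testis and 4.26, 4.05 and 4.01 in GC-1 (4.87, SE 0.17, adjusted p = 8.5e-07), and a Ska2 lncRNA, with 1.35, 1.00 and 1.12 against 5.34, 4.89 and 4.96 (3.91, SE 0.19, adjusted p = 4.1e-06). Smc1a encodes a cohesin subunit and Ska2 a protein of the kinetochore, but these probes were designed to noncoding transcripts. Whether they also read the mRNA was not tested. The others called higher were those of Atad2 (3.18), Mcm10 (3.12), Dlgap5 (2.76), Rad1 (2.63), Rad54l (2.55) and Gmnn (2.42).

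**Figure D2:**
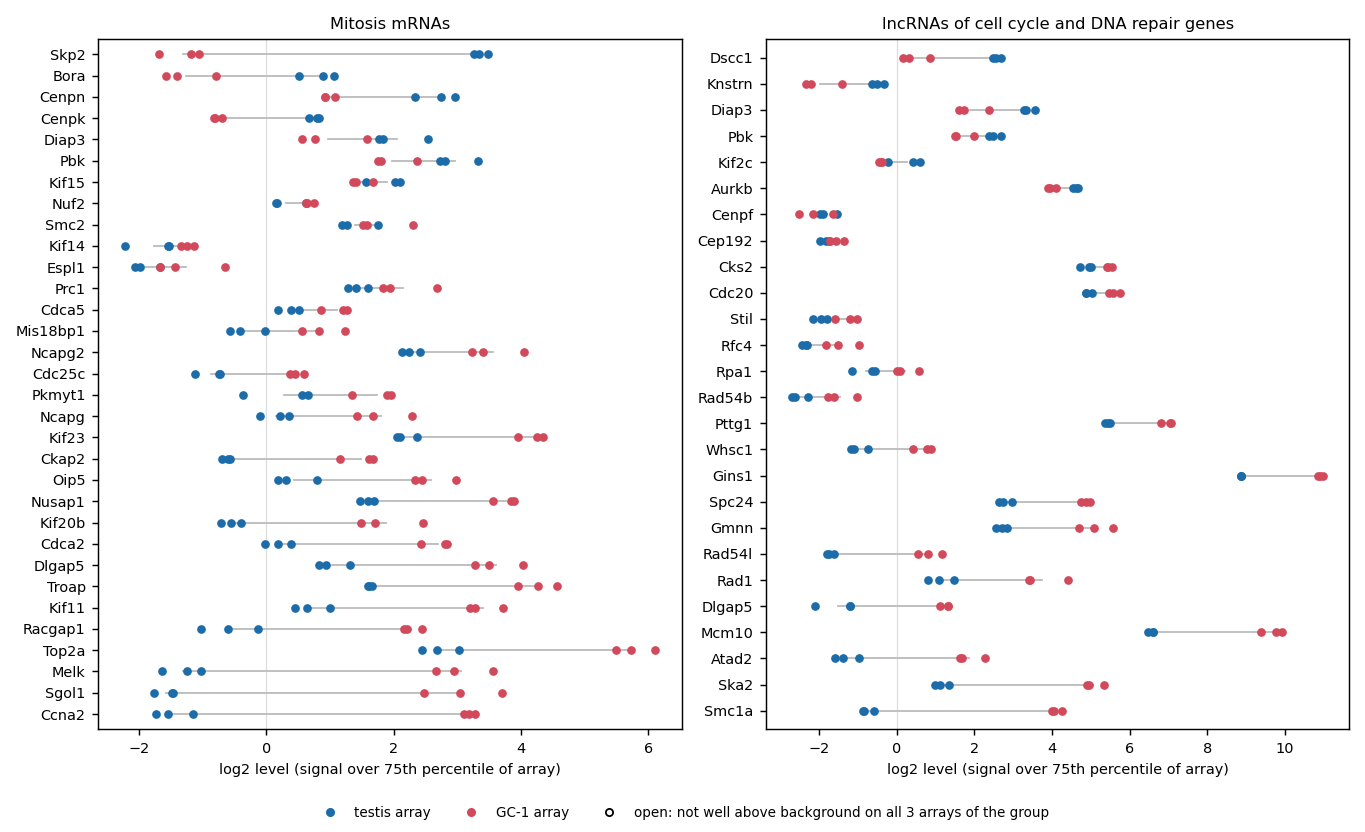
Levels of 32 mitosis mRNAs (left) and 26 lncRNAs named for cell cycle and DNA repair genes (right) on the 3 testis arrays (blue) and the 3 GC-1 arrays (red), as log2 of signal over the array's 75th percentile; lines join the group means. Rows run from the lowest difference (top) to the highest, from Skp2 at -4.66 to Ccna2 at 4.67 and from Dscc1 at -2.13 to Smc1a at 4.87.

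The list of cell cycle brake and cell death genes had 5 probes for 4 genes, of which 2 were called higher and none lower under every scaling. Bcl2l15, a member of the BCL2 family of cell death regulators, had levels of -0.76, -0.04 and 0.04 in testis and 6.73, 7.32 and 7.36 in GC-1. It was 168-fold higher (difference 7.39, SE 0.29, adjusted p = 1.4e-06), the largest difference upward of any named mRNA. Cdkn2a, which encodes the cell cycle inhibitor p16INK4a and the p53 activator ARF, had 0.52, 1.10 and 1.06 in testis against 4.97, 5.24 and 5.96 in GC-1 and was 22.6-fold higher (4.50, SE 0.31, adjusted p = 1.8e-05). The study had listed both as testis-specific among tissues. Bcl2l11, which encodes the cell death inducer BIM, had differences of 0.08 and -0.22 at its 2 probes, and Dusp4, a MAP kinase phosphatase, -0.70; none was called.

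The nuclear pore and RNA processing lists changed at single members. Of 5 nuclear pore and lamina probes, Nup62cl was lower, with 0.91, 0.65 and 0.59 in testis and no GC-1 array well above background, at least 12-fold, but not after normexp correction. Lmnb1, which encodes lamin B1, had 0.14, -0.09 and 0.05 against 2.53, 2.33 and 2.34 and was higher (2.37, SE 0.16), a call lost under the 3 other scalings and without GC-1 replicate 1 or testis replicate 2. The general pore components Nup214 (-1.24), Nup98 (-1.03) and Nup205 (-0.88) were not called. Of 9 RNA processing and ribosome assembly probes, Isg20l2, a ribosomal RNA exonuclease, was lower under every scaling, with 4.29, 3.78 and 3.83 in testis and -1.15, -1.39 and -0.85 in GC-1 (-5.10, SE 0.23, adjusted p = 2.4e-06). The other 8 lay between -1.57 and 0.62 and were not called.

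Among all named mRNA probes 17 were higher and 116 lower, with a median of -1.89 (-1.72 with such bounds), and among named lncRNA probes 843 were higher and 145 lower, with a median of 1.91. Both splits follow from how the names were chosen and are given as a description only. The 8 mRNAs with the largest fitted differences downward had no measured order, because none was well above background on all 3 GC-1 arrays. Gm14501 was at least 1896-fold lower, 2410141K09Rik at least 893-fold, Gtsf1 at least 785-fold, Gm14625 at least 630-fold and 1700022P22Rik at least 534-fold, and none of these 5 was above background on any GC-1 array. Oxct2b, Qrich2 and 1700009N14Rik (-11.52) were above it on 1. For 1700009N14Rik the GC-1 arrays themselves differed, with 0.01 on replicate 1 against -3.44 and -3.45 on the others. Upward the 8 were Bcl2l15, Ccna2, Sgol1, Cdkn2a, Melk, Eme1, Clhc1 and Top2a, and the smallest difference among them was 3.06.

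The snoRNA host genes are transcribed into lncRNAs whose introns yield small nucleolar RNAs, and their spliced RNAs have a 5′ end like that of ribosomal protein mRNAs. They were represented by 13 probes for 5 genes, of which 10 were called higher in GC-1, 1 was lower and 2 were not called, with a median of 3.15. The share called higher was 76.9%, against 17.4% of all probes and 41.0% of named lncRNA probes. With the common-probe percentile 5 were higher and 1 lower. Snhg1 had levels of 0.48, 0.56 and 0.36 in testis and 7.12, 5.34 and 5.35 in GC-1 (difference 5.47, SE 0.48, adjusted p = 6.7e-05). It was 44.4-fold higher, and GC-1 replicate 1 lay above the other GC-1 arrays; without that array the difference was 4.88, and on the slide shared by the first replicates it was 6.64. Snhg6 (3.70, SE 0.18), Dancr (3.12, SE 0.20) and the noncoding Taf1d transcript (3.02, SE 0.20) were called higher too.

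Gas5 (growth arrest-specific 5) is the host of many box C/D snoRNAs, and its RNA is kept low by translation-coupled decay in growing cells. It had 9 probes, each designed to 1 of its spliced transcripts, and these did not move together. The 8 probes with a sequence in the study's tables are shown, because their overlaps bear on how far the readings are separate. Coordinates are of the transcripts on GRCm38, all on the plus strand of chromosome 1 between 161034422 and 161038539, and capitals mark runs of 12 bases or more that also occur in another of the probes.
ENSMUST00000160152: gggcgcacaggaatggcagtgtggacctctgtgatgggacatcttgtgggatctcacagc
ENSMUST00000159890: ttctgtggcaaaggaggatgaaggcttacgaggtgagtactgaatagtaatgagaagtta
ENSMUST00000160429: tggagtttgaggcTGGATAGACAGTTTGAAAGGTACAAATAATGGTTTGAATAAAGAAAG
ENSMUST00000159663: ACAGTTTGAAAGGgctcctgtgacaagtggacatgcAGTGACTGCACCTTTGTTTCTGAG
ENSMUST00000162558: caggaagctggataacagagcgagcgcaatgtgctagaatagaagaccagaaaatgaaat
ENSMUST00000160551: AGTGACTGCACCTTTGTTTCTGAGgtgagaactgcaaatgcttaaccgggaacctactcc
uc007det.1: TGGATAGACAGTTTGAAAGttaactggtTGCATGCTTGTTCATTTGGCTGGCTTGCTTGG
ENSMUST00000161380: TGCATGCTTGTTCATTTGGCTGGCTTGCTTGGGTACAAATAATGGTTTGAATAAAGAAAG
The order is that of the differences, from 3.84 for ENSMUST00000160152 down to 1.51 for ENSMUST00000161380. The probes of ENSMUST00000160152, ENSMUST00000159890 and ENSMUST00000162558 share no such run with any other. The whole of the ENSMUST00000161380 probe is made of runs that occur in others, and the study's tables list other transcripts for 7 of the 8 probes, so that these are overlapping readings and not 8 separate ones.

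For ENSMUST00000160152 the levels were 3.26, 3.12 and 3.05 in testis and 7.91, 6.62 and 6.42 in GC-1 (3.84, SE 0.39, adjusted p = 0.00011). ENSMUST00000159890 (3.73), ENSMUST00000160429 (3.50), ENSMUST00000159663 (3.36), ENSMUST00000162558 (3.15) and ENSMUST00000160551 (2.32) were also called higher. The calls of ENSMUST00000159663, ENSMUST00000162558 and ENSMUST00000160551 were lost both with the common-probe percentile and under quantile normalization, whereas the other 3 kept theirs. The differences of uc007det.1 (1.52, SE 0.47) and ENSMUST00000161380 (1.51, SE 0.38) did not reach 5-fold. The probe of ENSMUST00000159706 was lower, with levels of 1.34, 1.39 and 1.38 in testis and -1.71, -1.13 and -2.17 in GC-1 (-3.04, SE 0.27, adjusted p = 7.4e-05), a call that was lost after normexp correction. Gas5 was thereby the 1 symbol of the 17 with 2 or more called probes that was called in both directions. The GC-1 arrays lay above the testis arrays for 8 of the probes, as for 63.7% of all probes. They lay below them for the other one, as for 20.7% of all probes. GC-1 replicate 1 had the highest level on each of the 8, and without it the median of the 9 probes fell from 3.15 to 2.71.

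Imprinted lncRNAs, expressed from 1 parental allele, had 12 probes for 5 genes, with none called higher and 2 lower (16.7%, against 11.8% of all probes). Both were probes of Meg3, a maternally expressed lncRNA that has many isoforms, and its 6 probes are shown because they were designed to transcripts that span different parts of the locus. Coordinates are of the transcripts on GRCm38, chromosome 12, plus strand. No run of 12 bases is shared between these probes, so that no letter is in capitals.
NR_003633, 109545398 to 109568600: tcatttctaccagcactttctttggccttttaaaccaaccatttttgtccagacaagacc
ENSMUST00000129245, 109541001 to 109545319: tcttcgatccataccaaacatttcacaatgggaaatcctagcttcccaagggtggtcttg
ENSMUST00000150851, 109549255 to 109549775: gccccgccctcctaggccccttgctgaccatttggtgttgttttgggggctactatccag
uc007pat.2, 109544027 to 109571729: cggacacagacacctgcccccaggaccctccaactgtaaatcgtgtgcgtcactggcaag
NR_046475, 109540996 to 109571729: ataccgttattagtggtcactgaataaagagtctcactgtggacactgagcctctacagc
NR_027651, 109540996 to 109568600: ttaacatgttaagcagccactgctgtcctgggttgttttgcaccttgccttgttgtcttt
The NR_003633 probe had levels of -1.08, 0.97 and 0.18 in testis and no GC-1 array well above background, and was at least 7.41-fold lower in GC-1 (adjusted p = 1e-04). The ENSMUST00000129245 probe was at least 5.84-fold lower, and both calls were lost after normexp correction. In contrast, the ENSMUST00000150851 probe read 6.31, 6.19 and 6.11 in testis and 6.45, 6.53 and 6.09 in GC-1, which overlap (difference 0.15, SE 0.18, adjusted p = 0.45). The uc007pat.2 probe differed by 0.18 (SE 0.17) and the NR_027651 probe by 1.63 (SE 0.22), and the NR_046475 probe was well above background in neither group. The readings of Meg3 in GC-1 therefore depended on the probe, and levels of different probes cannot be set against each other. H19 had 7.64, 8.66 and 8.66 in testis and 8.33, 9.21 and 9.29 in GC-1, which overlap (0.63, SE 0.38, adjusted p = 0.16). Kcnq1ot1 (1.61), Peg13 (0.97) and the 3 probes of Nespos were not called.

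Nuclear body lncRNAs had 5 probes, of which 1 was called. Neat1, the scaffold of paraspeckles, had 1.83, 4.13 and 3.51 in testis and 7.11, 6.42 and 6.0 in GC-1 (3.35, SE 0.61, adjusted p = 0.0018). Testis replicate 1 lay below the other testis arrays; without it the difference was 2.69, on the shared slide alone it was 5.28, and with the common-probe percentile the call was lost. The 3 probes of Malat1, a nuclear speckle RNA, differed by 1.98, 2.12 and 2.17, and Tug1 by 1.78, none called; without testis replicate 2, 4 of the 5 were called higher.

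**Figure D3:**
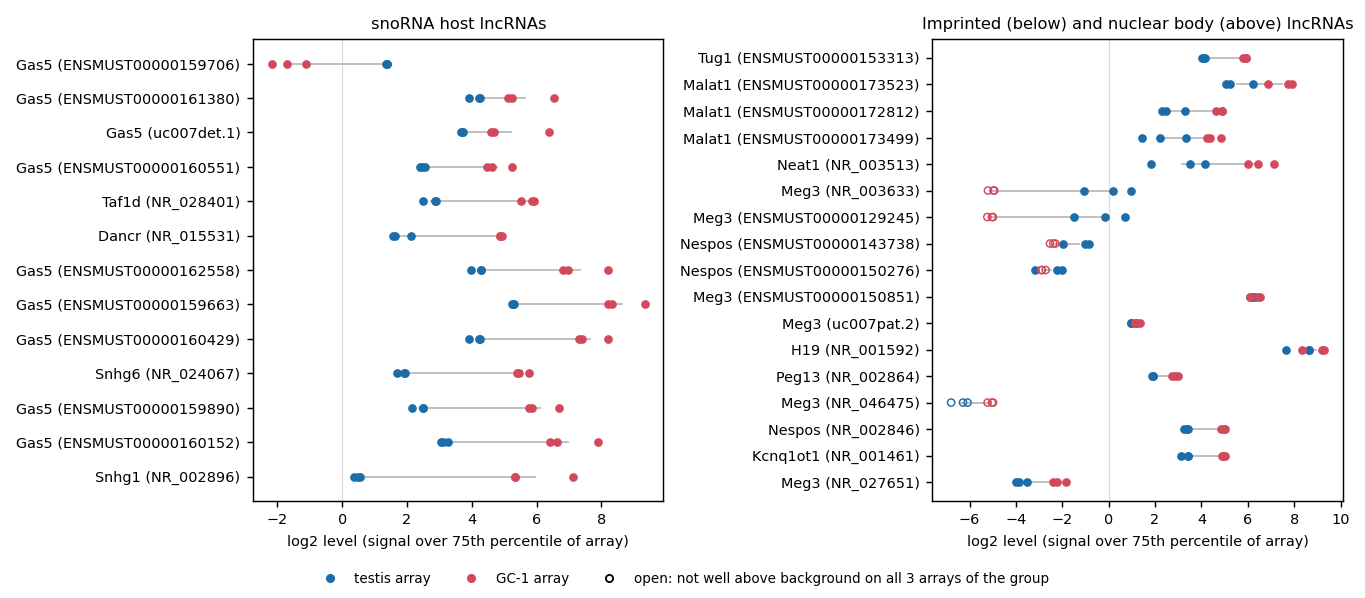
Levels of the 13 snoRNA host probes (left) and of the 12 imprinted and 5 nuclear body lncRNA probes (right) on the 3 testis arrays (blue) and the 3 GC-1 arrays (red), as log2 of signal over the array's 75th percentile; lines join the group means and open points mark a group with fewer than 3 arrays well above background. Gas5 probes run from -3.04 to 3.84, and 2 Meg3 probes have GC-1 arrays below background and below testis.

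The largest differences upward among named lncRNAs came from a single locus. Shisa4 ENSMUST00000159918 and AK181950 (uc029qtj.1) are transcripts of the minus strand of chromosome 1 that overlap in position, and their probes, shown to let them be told apart, share no run of 12 bases.
Shisa4 ENSMUST00000159918, 135371060 to 135373450: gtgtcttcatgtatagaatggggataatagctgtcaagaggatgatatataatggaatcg
AK181950 uc029qtj.1, 135371247 to 135371760: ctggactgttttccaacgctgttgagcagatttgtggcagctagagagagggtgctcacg
The Shisa4 probe had -2.95, -1.89 and -1.63 in testis and 7.40, 6.80 and 6.84 in GC-1, a 577-fold difference (9.17, SE 0.38, adjusted p = 1.8e-06). The AK181950 probe had -3.00, -2.76 and -2.87 against 6.77, 5.91 and 5.96 (9.09, SE 0.27, adjusted p = 3.9e-07), so that both probes were called higher. The other 6 were Tyms-ps (7.35), BC023483 (7.25), Gm5742 (6.95), Gm7809 (6.94), a Homer3 lncRNA (6.72) and B930095G15Rik (6.71). Tyms-ps is a pseudogene of thymidylate synthase, and its probe may also read the parent transcript. The Homer3 lncRNA was well above background on no testis array and was at least 47.6-fold higher in GC-1. All 8 were called under every scaling. Most named lncRNAs had been listed as abundant in brain or F9, and 7 of these 8 were well above background on all 3 brain arrays. The Shisa4 probe read 5.89, 6.87 and 6.98 in brain.

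Downward, the lncRNA named for the skin chemokine gene Ccl27a had 7.78, 8.35 and 8.19 in testis and was well above background on no GC-1 array, at least 1852-fold lower (adjusted p = 1.3e-07). The others of the 8 with the largest fitted differences had no measured order either. LOC100041014 was at least 280-fold lower, BC038906 at least 265-fold, FJ541090 at least 264-fold, 4933438K21Rik at least 75.1-fold and AK032666 at least 61.3-fold. AK018904 differed by -8.38, and Gm6455, above background on 1 GC-1 array, by -8.14. AK018904 was the only one of these 8 to be well above background on all 3 GC-1 arrays. All 8 were called lower under every scaling.

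Of 46 ribosomal protein pseudogene lncRNA probes, each for another pseudogene, 41 (89.1%) were called higher and none lower, with a median of 2.85. Called higher were 17.4% of all probes and 41.0% of named lncRNA probes. On all 46 the 3 GC-1 arrays lay above the 3 testis arrays, as they did for 63.7% of all probes. The differences ran from 1.35 for Rpl29-ps1, with 4.81, 4.25 and 4.33 against 5.55, 5.93 and 5.96, to 4.07 for Rpsa-ps11, with 4.44, 4.71 and 4.72 against 8.65, 8.51 and 8.92. With the common-probe percentile 14 were higher (30.4% of the list, against 6.87% of all probes), and with quantile normalization 8 (17.4%, against 13.0%). After normexp correction 30 were higher (65.2%, against 6.65%). Of the 2057 named lncRNA probes, 375, 442 and 645 were higher under these 3 scalings. No probe of the list was lower under any of them. These probes can share sequence with the mRNA of the parent ribosomal protein gene, so that the source of the signal is uncertain. The precursor of ribosomal RNA, Rn45s, differed by 1.57, and Rpph1, the RNA of RNase P, was called higher (2.47), but not under the 3 other scalings. Of 3 probes named for mitochondrially encoded genes, which nuclear copies can resemble, Cox2 (1.29) and 1 probe of Atpase6 (1.54) were not called. The transcript of that Atpase6 probe is placed on chromosome 1 and not on the mitochondrial genome. The other Atpase6 probe, on the mitochondrial genome, was called higher (2.43), a call also lost under the 3 other scalings.

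Genes with both an mRNA probe and an lncRNA probe numbered 13, and the signs of both differences were the same in 9. Whether the lncRNA probes also read the mRNA was not tested. For BC055111 both were called lower, the mRNA at least 21.5-fold and the lncRNA at least 80.4-fold, and for Dlgap5 both higher (2.58 and 2.76). In 4 genes 1 of the 2 was called, in 7 neither was, and in none were they called in opposite directions. The signs differed for Nup214, whose mRNA had -1.24 and whose lncRNA was higher (3.63), for Rsph6a, whose mRNA was lower (-3.62) and whose lncRNA had 1.31, and for Dscc1 (0.79 and -2.13) and Ttll4 (-1.23 and 1.38), where neither was called. Wdr62 had the mRNA lower (-4.44) with an lncRNA at -0.31. For Zfp951 the lncRNA was called lower with its mRNA at -0.64, but the lncRNA was well above background on no GC-1 array and its bound was at least 1.77-fold. That call rests on a level below background, and after normexp correction the difference was 0.06.

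The 10 lncRNAs of neuronal and glial genes formed the last list. Gap43, named for a protein of growing axons, was the one called, and it was higher in GC-1. It was well above background on no testis array, had -1.76, -1.63 and -1.96 in GC-1 and was at least 7.23-fold higher (adjusted p = 5.2e-05), a call lost after normexp correction. The other 9 were not called; Sstr2 (-2.0) was called lower only with the common-probe percentile, as were Gria1 and Resp18. Medians of the larger lists are set side by side under 4 scalings in the plot of list medians.

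**Figure D4:**
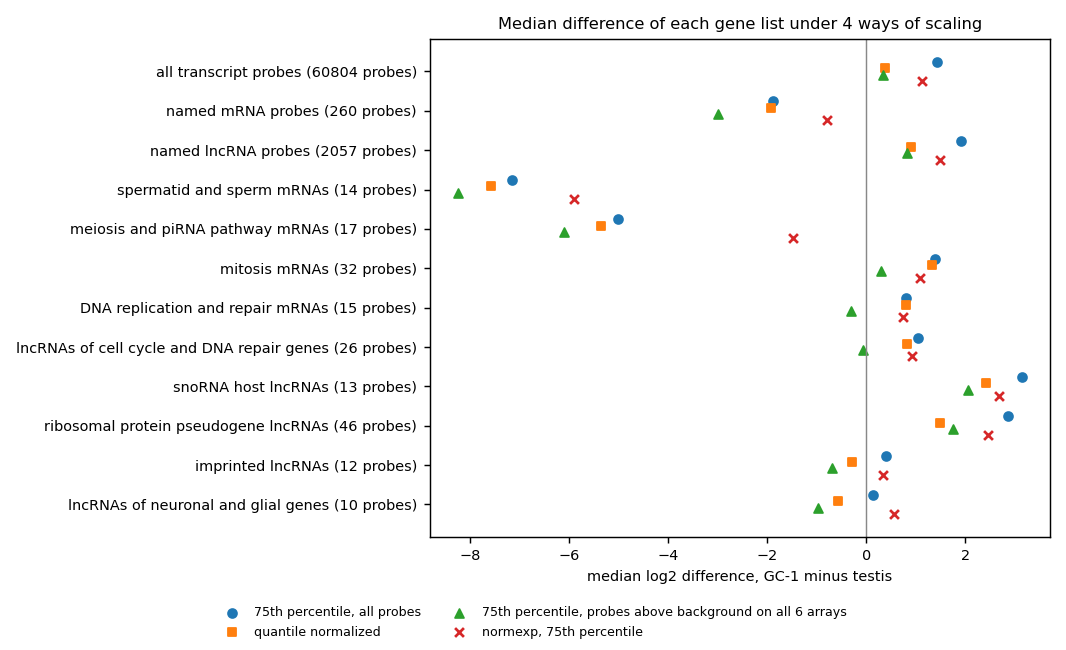
Median difference, GC-1 minus testis, of each gene list on the log2 scale under 4 scalings; each symbol is 1 scaling and the top row holds all 60804 probes. The spermatid and meiosis lists lie below 0 under all 4 scalings and the snoRNA host and ribosomal pseudogene lists above 0, while the DNA replication, cell cycle lncRNA, imprinted and neuronal lists fall on either side.

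The study's own lists of testis-specific transcripts found in GC-1 were drawn from these arrays, which limits them to a description. All 143 lncRNA probes of that kind were well above background on all 6 arrays. Of them 11 were called higher in GC-1 than in testis and 32 lower, with a median of -0.93; with the common-probe percentile 4 were higher and 59 lower. Of 167 mRNA probes 17 were higher and 40 lower, with a median of -0.78, and with the common-probe percentile 6 and 68. Most of these transcripts thus did not pass 5-fold in either direction.

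GC-1 was also set against the other lines, in a fit of the 12 arrays of testis and the 3 lines. Over all probes GC-1 was higher than GC-2 at 2.08% and lower at 1.23%, and higher than F9 at 3.72% and lower at 3.44%. Among the 2317 named probes 62 were higher and 31 lower than in GC-2, and 78 were higher and 174 lower than in F9. With a bound of at least 5-fold asked of probes above background on no array of 1 group, these counts were 45 and 21, and 52 and 134, beside 1.30% and 0.798% of all probes against GC-2 and 2.56% and 2.25% against F9. Of the named probes, 1404 came from the study's list of lncRNAs in F9, and named mRNAs had been chosen as present in a line. The counts of named probes are therefore a description only. Bcl2l15 was the member of the gene lists with the largest difference from GC-2: GC-2 arrays read -1.79, -1.41 and -2.02 and F9 arrays -1.30, -0.47 and -0.68, all below the lowest GC-1 array at 6.73, with differences of 8.88 (SE 0.31, adjusted p = 7.9e-09) and 7.95 (SE 0.31, adjusted p = 5.1e-09). Cdkn2a, in contrast, did not differ detectably from GC-2, with 4.93, 5.57 and 5.59 there (difference 0.03, SE 0.40, adjusted p = 0.97), and was higher than in F9 by 5.62 (SE 0.40, adjusted p = 7.5e-07). Ccna2 was not called against either line.

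Against F9, 13 of the 17 meiosis and piRNA probes were called lower in GC-1 and none higher. Beside this, 3.44% of all probes and 57 of the 260 named mRNA probes were lower. With the bound of at least 5-fold, 8 of the 13 were left. An mRNA that the study did not find in GC-1 could be named only through F9 or GC-2. The direction of these calls is therefore no independent evidence. Stra8 read 1.63, 0.98 and 1.14 in F9, above background on no GC-1 array, and was at least 17.3-fold lower in GC-1 (adjusted p = 4.9e-09). Tex19.1 was at least 47.4-fold lower, Ddx43 at least 31.1-fold and Rnf17 at least 15.8-fold, whereas the bound for Piwil2 was 2.69-fold. Against GC-2 the call of Ddx43 as lower had a bound of 3.14-fold and that of the second Tex14 probe as higher one of 1.59-fold, so that neither was measured to be 5-fold. Both Meg3 probes that were not well above background in GC-1 were high in F9, with means of 4.83 (NR_003633) and 4.67 (ENSMUST00000129245) there, and were at least 207-fold and at least 186-fold lower in GC-1. The Shisa4 lncRNA was higher than in F9 (4.75, SE 0.47) and did not pass the threshold against GC-2 (0.92, SE 0.47). The Ccl27a lncRNA was at least 35.9-fold lower than in GC-2 and at least 17.7-fold lower than in F9. BC038906 was at least 26.7-fold lower than in F9, with a bound of 1.69-fold against GC-2, while BC023483 was higher than in either (3.71 and 4.06). Star, at -1.99 to -2.54 in GC-1, read 0.06 on GC-2 replicate 1 and -2.46 and -2.25 on the other GC-2 arrays; its differences from GC-2 (-0.68) and F9 (0.08) were not called.

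**Figure D5:**
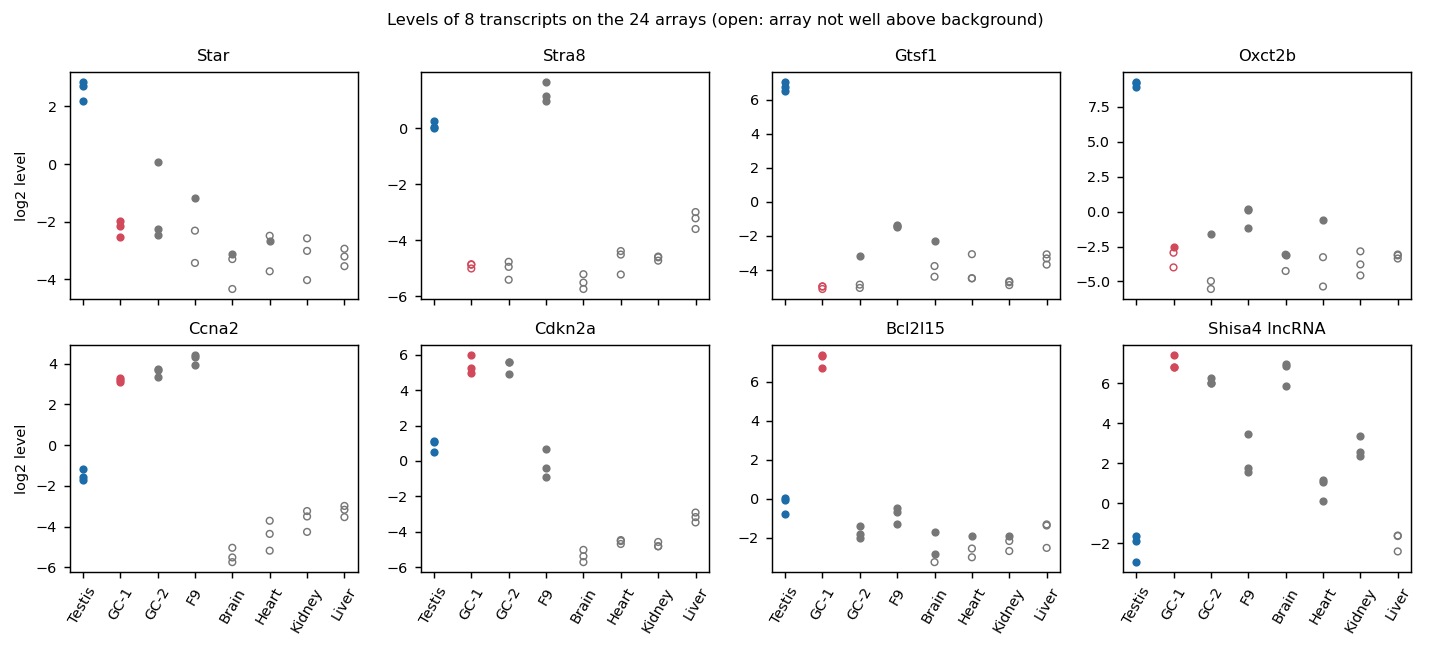
Levels of 8 transcripts on all 24 arrays, as log2 of signal over the array's 75th percentile, with testis in blue, GC-1 in red and the other groups in grey; each point is 1 array and open points were not well above background. Star, Gtsf1 and Oxct2b are highest in testis, Bcl2l15 in GC-1, and Cdkn2a lies between 4.93 and 5.96 in GC-1 and GC-2 alike.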

How the data were processed

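Total RNA was labelled with Cy3 and hybridized, per the labels and the study's methods, to a mouse lncRNA array read with Agilent Feature Extraction 11.5.1.1. The authors deposited one scanner file per sample with the processed signal of each probe as an intensity, and a value table of linear intensities that equalled this processed signal within a relative difference of 0.000228. The scanner intensity, already background-subtracted, was taken as log2 minus the log2 of the 75th percentile of its array over the 60804 transcript probes; control spots were left out. GC-1 and testis were compared on their 6 arrays with limma 3.58.1 in R 4.3.3 (lmFit and eBayes, Benjamini-Hochberg adjustment over all 60804 probes); a call needed a fold of 5 and an adjusted p of 0.05. GC-1 was compared with GC-2 and F9 in a fit of the 12 arrays of testis and the 3 lines. Tables were handled in Python 3.11.15. The fit was tested on simulated data.

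Probes were named from the study's supplementary tables. Of these, the names, class, list membership, coordinates, probe sequences and the other transcripts listed for a probe were used, and not the expression values. Each list member could be named, as could the 8 mRNAs and 8 lncRNAs with the largest called differences in each direction with no overlap between groups, genes with both kinds of probe, and all probes of Gas5, Meg3 and Malat1. The genes, lists and comparisons were chosen with earlier results of these data known. Alternatives were the array median, a percentile over probes above background on all 6 arrays, quantile normalization, a floor of 5, normexp with an offset of 50 on the median signal, a filter on dim probes, the deposited value table, other sets of arrays, slide and replicate number as blocks, a fold of 2, and the methods' t-test. Replicate numbers were not taken as pairs, since same-numbered arrays deviated together with correlations of 0.095, 0.042 and 0.036. The small number of arrays limits the precision, and the depth of an array is not a count.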

Additional observations from a re-analysis of the deposited data

Results flagged for a closer look

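The difference of GC-1 from testis itself differed from that of another line for 3 probes of the gene lists against GC-2 and for 22 against F9, by limma's test of the difference with adjustment over all probes. Where 1 line was well above background on no array, a bound of at least 5-fold was asked and is the value given. Groups of 3 arrays were not tested for outlying samples, and no cause was tested. A GC-2 array was known beforehand to stand apart. Without GC-2 replicate 1, 67 named probes were higher and 32 lower than in GC-2, against 62 and 31 with it. An mRNA that the study did not find in GC-1 could be named only through F9 or GC-2, so that lower values in GC-1 are a description only.

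Against GC-2, GC-1 was higher for Bcl2l15 (8.88). It was lower for Speer2 (-3.75), a spermatid transcript measured on 1 GC-1 array, and for the Gap43 lncRNA (-2.77).

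Against F9, GC-1 was higher for Bcl2l15 (7.95) and Cdkn2a (5.62) among mRNAs. Among lncRNAs it was higher for Peg13 (5.33), Neat1 (3.67) and 1 of the 9 Gas5 probes, ENSMUST00000159890 (4.77).
Measured on at least 1 array of each line, it was lower than F9 for Tex14 (-5.26), Qrich2 (-4.63), Bora (-3.33), Oxct2b (-2.84) and Atf7ip2 (-2.59), for the lncRNAs of Gap43 (-6.94) and Sstr2 (-3.00), and for Rpph1 (-3.17). As bounds, it was at least 104-fold lower for Nup62cl, 47.4-fold for Tex19.1, 31.1-fold for Ddx43, 17.3-fold for Stra8, 15.8-fold for Rnf17, 8.14-fold for Hormad2 and 5.80-fold for Gpat2. The Meg3 probes NR_003633 and ENSMUST00000129245 were at least 207-fold and at least 186-fold lower.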

How the results depend on the processing

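Higher calls depended on scaling and background more than lower calls. Over all probes the 10570 higher calls became 4180 with the common-probe percentile, 4042 after normexp correction and 35328 at a fold of 2, and the 7202 lower calls 3689 after normexp. Of the 214 list probes, 78 were higher: 28 with the common-probe percentile, 35 with quantile normalization, 51 after normexp and 119 at a fold of 2. The 33 lower became 21 after normexp and 53 at a fold of 2. The Zfp951 lncRNA changed sign after normexp, from -2.93 to 0.062. Leaving out 1 array at a time gave 10407 to 10849 higher and 7140 to 7321 lower probes, 72 to 79 and 32 to 36 list probes, and -5.0 to -4.65 for Star, which kept its call under every alternative run. Without GC-1 replicate 1 the calls of Kif20b (2.15), the Rad1 (2.30) and Gmnn (2.19) lncRNAs, Lmnb1 (2.30), Gas5 ENSMUST00000160551 (2.10) and Rpl35a-ps7 (2.32) were lost, and without GC-1 replicate 3 that of Atpase6 (2.26). Lmnb1 was at 2.30 also without testis replicate 2, and Atr at -2.14 and -2.18 without GC-1 replicate 2 and testis replicate 1. With the replicate block there were 10570 higher and 7206 lower probes, and no call of a list probe changed; the replicate numbers share no stated origin. Slide as a random block gave 10787 and 7137, the methods' t-test 10320 and 7179, or 10193 and 7164 after Benjamini-Hochberg adjustment. Requiring the higher group to be well above background on all 3 arrays, chosen after seeing the data, left 7965 and 7202. A bound of at least 5-fold for probes below background in 1 group, also chosen after seeing the data, left 8134 and 5387 and the same 78 and 33 list probes; the Zfp951 lncRNA, at least 1.77-fold, lost its call. Transcripts near background in GC-1 have bounds only, and 1206 of the higher calls were well above background on no GC-1 array.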
